A study of Mus musculus with 24 samples.

Results

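The Rab GTPases are the largest family of small GTP-binding proteins, and its members mark and move the membranes of the secretory and endocytic pathways. They were taken here as all genes whose symbol on the array is Rab followed by a number and an optional letter. That gave 59 of the 18194 named genes, represented by 132 probe sets. For each gene the brightest probe set was used, and 50 of the 59 Rab genes passed the filter on dim probe sets, as did 13880 of all genes. The rule uses names alone and no measured value.

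Signals were measured on microarrays in whole adrenal glands, cortex and medulla together, of wild-type male C57B/6J mice, 3 months old. All mice had lived for 2 weeks in cycles of 12 h of light and 12 h of darkness before the lights stayed off. Glands were taken every 4 h, the first at 38 h and the last at 82 h after lights off, and the 12 time points, with 2 arrays at each, span 2 cycles. Subtracting 12 h from these hours, modulo 24, gives 6 projected circadian times (2, 6, 10, 14, 18 and 22), where 0 is the time at which light would have begun. The groups share strain, sex, age and history by their labels and are named by time, and the labels do not say whether each array holds a different animal, so p-values measure the spread between these arrays.

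In 6 pairs of arrays the values were near-copies, with the log2 ratio between the 2 arrays spread by an SD of at most 0.0418, against at least 0.217 in the 30 remaining pairs that share a circadian time. The arrays of each such pair differed by less than arrays otherwise did, and were averaged and counted as 1 sample, which left 18 profiles, 3 for each circadian time. Except for the pair of 70 h, the pairs joined arrays labelled with different cycles (38 and 62 h, 42 and 66 h, 50 and 74 h, 54 and 78 h, 58 and 82 h). The cycle to which the values of those pairs belong cannot be told. An added control transcript, ThrX-3, split the arrays into a first set (circadian times 2, 6, 14 and 22, 12 profiles) and a second set (circadian times 10 and 18, 6 profiles). The labels do not name these sets. Markers fixed for the cell types of the gland were high: the log2 of the summed signal of 10 chromaffin genes lay at 15.61 to 15.93 in the second set and 15.66 to 15.93 in the first, and that of 9 cortical genes at 16.16 to 16.43 and 16.40 to 16.49. Skeletal muscle markers stood out in 4 profiles, all in the second set, where Acta1 had a signal of 1760 to 8041. These were 46 h replicate 1 and the averaged pair of 70 h at circadian time 10, and 78 h replicate 2 and the pair of 54 h and 78 h at circadian time 18. The array of 78 h replicate 2 also had a ratio of 5′ to 3′ Gapdh signal of 0.0386, against at least 0.822 in the other arrays. In whole glands, fewer cells of a type and less RNA per cell cannot be told apart.

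A Rab protein is active while it holds GTP, when it sits in a membrane and recruits effectors such as tethers and motor proteins. Exchange factors load it with GTP, GTPase activating proteins make it hydrolyse the GTP, and escort proteins and prenyl transferases give it the lipid tail by which it holds the membrane. In the adrenal medulla, chromaffin cells store catecholamines in granules that carry Rab3 and Rab27 proteins. Cortical cells do not store steroids in granules, but take up lipoproteins and move cholesterol between endosomes, lysosomes and mitochondria.

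Most Rab genes showed no rhythm past the threshold, and those that did moved by small amounts. A 24 h cosine was fitted to log2(signal + 51) in each of the 13880 genes with limma, and a gene was called rhythmic at a Benjamini-Hochberg adjusted p under 0.05. The calls numbered 6 of 50 Rab genes (12%), beside 12.8% of all tested genes. They were Rab33a, Rab28, Rab12, Rab11a, Rab29 and Rab14. With the array set as a block, 12 of 50 were called (24%), beside 17.9% of all genes, and in the first set alone 7 (14%), beside 12.3%. The median amplitude, the height of the fitted peak over the mean in log2 units, was 0.101 over the 50 Rab genes and 0.115 over all tested genes. With the block the medians were 0.089 and 0.0927. Without the 4 profiles with an Acta1 signal over 1000, the calls were Rab33a, Rab12 and Rab29 (3 Rab genes, beside 7.33% of all genes), and with the block 6, these and Rab21, Rab40c and Rab5c, beside 13.9%. No called Rab gene reached a fitted ratio of peak to trough of 2, which 127 of the 1777 called genes of the array did. The median ratio was 1.15 over the 50 Rab genes and 1.17 over all tested genes.

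Rab33a, a Golgi Rab that binds the autophagy protein Atg16l1, had the largest amplitude of the called Rab genes. Its signals were 687, 705 and 756 at circadian time 2, 501, 593 and 621 at 6, 455, 465 and 490 at 10, 464, 581 and 681 at 14, 575, 578 and 717 at 18, and 774, 973 and 1390 at 22. All 3 profiles at 22 were above every other profile of the 18, and those at 22 were also the most spread. The fitted log2 amplitude was 0.42 ± 0.077 (SE), a ratio of peak to trough of 1.79, with the peak at 22.5 h (adjusted p = 0.0052). The block gave 0.38 with a peak near 22 h (adjusted p = 0.0050), and the first set alone 0.49 (adjusted p = 0.0172). Rab33a stayed past the threshold when each of the 18 profiles was left out in turn.

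Rab29, which in human cells recruits the kinase Lrrk2 to the Golgi and to stressed lysosomes, was lowest at circadian time 14. Its signals were 1041, 1087 and 1172 at circadian time 2, 976, 1029 and 1050 at 6, 829, 850 and 900 at 10, 727, 758 and 777 at 14, 908, 925 and 1186 at 18, and 859, 936 and 1149 at 22. The 3 profiles at 14 lay below all other profiles. The log2 amplitude was 0.21 ± 0.049 with a peak at 1.22 h (adjusted p = 0.0246), and 0.26 with a peak at 1.38 h under the block (adjusted p = 0.0055). Without 62 h replicate 1 or without 74 h replicate 1 the unblocked call was lost, with an adjusted p of up to 0.0617.

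Rab11a, the Rab of recycling endosomes, varied within a narrow range. Its signals were 3217, 3310 and 3362 at circadian time 2, 3156, 3240 and 3471 at 6, 2654, 2701 and 2746 at 10, 2705, 2902 and 2920 at 14, 3108, 3202 and 3282 at 18, and 3014, 3273 and 3305 at 22. The profiles at 10 and 14 all lay below those of the other 4 times. The log2 amplitude was 0.13 ± 0.030 with a peak at 0.249 h (adjusted p = 0.0205). A second probe set of Rab11a passed as well, with an amplitude of 0.24 and a peak at 3.43 h (adjusted p = 0.0045, adjusted over the whole set of probe sets). Under the block the amplitude was 0.126 (adjusted p = 0.0303), and that call was lost without any of 6 profiles in turn (46 h replicate 1, 46 h replicate 2, 50 h replicate 2, 74 h replicate 1, or the pairs of 38 h and 62 h or of 50 h and 74 h), with an adjusted p of up to 0.108.

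Both rhythmic genes among the Rabs of transport to the cell surface, junctions and cilia were highest early in the projected day. Rab28, a Rab of ciliated cells that is mutated in a human cone-rod dystrophy, had signals of 2106, 2199 and 2202 at circadian time 2, 1962, 2115 and 2224 at 6, 1931, 2035 and 2181 at 10, 1796, 1873 and 1985 at 14, 1455, 1587 and 1824 at 18, and 1726, 1823 and 1989 at 22. Its lowest profiles were 2 of the 3 at circadian time 18. The log2 amplitude was 0.18 ± 0.037 with a peak at 5.68 h (adjusted p = 0.0114), and its other tested probe set also passed, at 0.153 (adjusted p = 0.0201 over all probe sets). In the first set alone it was 0.132 and did not pass (adjusted p = 0.0821).

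Rab12, which sends transferrin receptor from recycling endosomes to lysosomes, had signals of 1415, 1512 and 1541 at circadian time 2, 1434, 1526 and 1604 at 6, 1309, 1310 and 1480 at 10, 1215, 1234 and 1284 at 14, 788, 1144 and 1179 at 18, and 1330, 1337 and 1425 at 22. The lowest value, 788, came from 78 h replicate 2, the array with the low Gapdh ratio, and the other profiles at 18 were still below all the rest. The log2 amplitude was 0.24 ± 0.050 with a peak at 4.82 h (adjusted p = 0.0141). It was 0.204 under the block (adjusted p = 0.0183) and 0.155 in the first set alone, which holds no profile of circadian time 18 (adjusted p = 0.0098).

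Rab14, which works between the Golgi and endosomes, had the smallest amplitude of the 6, 0.092 ± 0.025 with a peak at 2.47 h (adjusted p = 0.0482). Its signals ranged only between 4210 and 5440, and the call held in 3 of 18 fits that left out a profile. It was not past the threshold under the block (0.063, adjusted p = 0.182). The probe set used for Rab14 is also of a kind that can match several transcripts. The other tested Rab14 probe sets had amplitudes of 0.025, 0.612 and 0.288 without the block. They were not called (adjusted p = 0.813, 0.176 and 0.118 over all probe sets). Of the 6 genes, 5 were called both with and without the block, and all of these but Rab28 also in the first set alone.

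**Figure D1:**
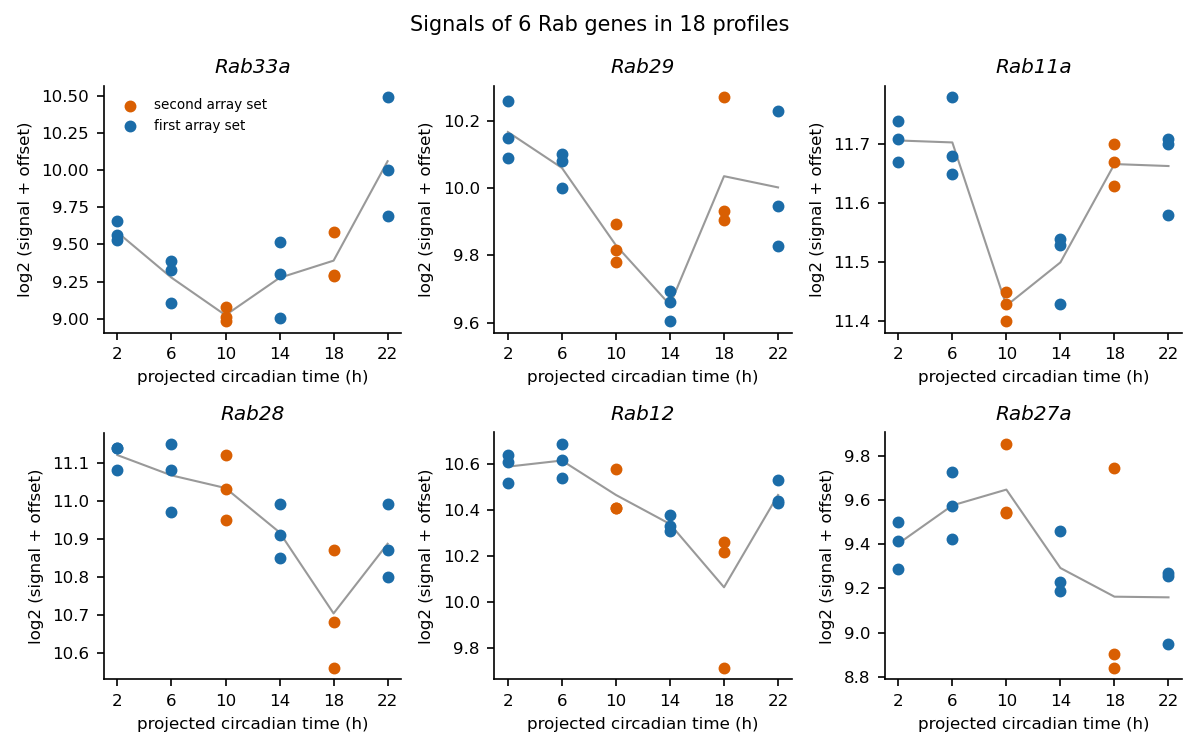
Log2 signal (signal plus an offset of 51) against projected circadian time in hours for 6 Rab genes; each point is 1 of 18 profiles, orange for the second and blue for the first array set, and the grey line joins the means of 3 profiles. Rab33a is highest at 22, Rab29 lowest at 14, Rab11a lowest at 10 and 14, Rab28 and Rab12 lowest at 18, and Rab27a has 1 of its 3 profiles at 18 apart from the others.

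A further 7 Rab genes were called with the array set as a block and not in the fit of all 18 profiles without it, and each is given with the block. Of these, Rab27a (adjusted p = 0.0435) and Rab5c (adjusted p = 0.0345) were also called in the first set alone. Rab4a, the Rab of fast recycling from early endosomes, had a log2 amplitude of 0.165 with a peak at 21.7 h (adjusted p = 0.0122). Its signals at circadian time 18 were 1588, 1626 and 1805, above all profiles of the other times, which lay between 1114 and 1504. Rab40c, which carries a box found in ubiquitin ligases, had an amplitude of 0.184 with a peak at 20.1 h (adjusted p = 0.0282). Its 3 profiles at circadian time 10 had signals of 792, 802 and 832 and those at 6 had 787, 892 and 900, below all those at 2, 14 and 22. The other tested Rab40c probe set had 0.109 and was not called (adjusted p = 0.417 over all probe sets).

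The other 5 of the 7 peaked between 7.22 and 12.2 h. Rab21, which moves integrins through early endosomes, had an amplitude of 0.124 and a peak at 7.90 h (adjusted p = 0.0071). Its signals at circadian time 18 were 1196, 1202 and 1256, lower than in every other profile. Rab8b, which carries cargo from the Golgi to the surface, had 0.222 with a peak at 8.29 h (adjusted p = 0.0268), and its signals at 18 were 661, 748 and 927, again the lowest of all 18. In the first set alone, which lacks that time, Rab8b had an amplitude with an adjusted p of 0.634.

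Rab43, a Rab of the Golgi, had an amplitude of 0.186 with a peak at 7.41 h (adjusted p = 0.0477). Its call under the block was lost without the filter on dim probe sets (adjusted p = 0.0576). The other tested Rab43 probe set had 0.0605 with a peak at 18.4 h and was not called (adjusted p = 0.77 over all probe sets). Rab5c, one of the Rabs that fuse early endosomes, had 0.172 with a peak at 12.2 h (adjusted p = 0.0201), with signals of 3289, 3357 and 3569 at circadian time 14, above all other profiles. The first set alone gave Rab5c an adjusted p of 0.0345. When each of the 18 profiles was left out in turn, the blocked calls of Rab21 and Rab4a held in all 18 fits, that of Rab5c in 17 (lost without 50 h replicate 2), that of Rab8b in 13 (lost without any profile of the second set but 54 h replicate 2), that of Rab40c in 11 and that of Rab43 in 4. Across the 13 genes called in either fit, no fitted peak of the brightest probe set lay between 12.2 and 20.1 h.

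Of the 7 tested Rabs of secretory granules and exocytosis, none was called without the block and 1, Rab27a, with it. The shares over all tested genes were 12.8% and 17.9%. Rab27a, which docks granules at the plasma membrane and ties melanosomes to their motor, had signals of 575, 632 and 674 at circadian time 2, 637, 711 and 798 at 6, 694, 697 and 876 at 10, 532, 548 and 654 at 14, 407, 428 and 807 at 18, and 444, 561 and 567 at 22. The profiles at 18 were split, with 807 in 54 h replicate 2, where Acta1 was at 192, and 407 and 428 in the profiles where Acta1 was at 1760 and 8041. The part of those muscle transcripts in the result was not tested. The log2 amplitude was 0.26 ± 0.072 with a peak at 7.64 h without the block (adjusted p = 0.0539), and 0.27 with a peak at 7.22 h with it (adjusted p = 0.0374). Leaving out 54 h replicate 2 gave 0.337 without the block (adjusted p = 0.0026), and the blocked call held in 7 of the 18 fits that left out a profile.

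The brightest probe sets of the remaining granule Rabs had low amplitudes. Rab3a, the main Rab of synaptic vesicles and also found on chromaffin granules, had a log2 amplitude of 0.107 ± 0.052 (adjusted p = 0.295), with signals between 1950 and 2930. This probe set is of a kind that can match several transcripts. The other tested Rab3a probe set had 0.158 without the block (adjusted p = 0.217 over all probe sets) and was called with it (0.168, adjusted p = 0.0363). It was also higher at circadian time 18 than at 10 by 0.395 (limma, adjusted p = 0.0078 over all probe sets). The relatives Rab3b, Rab3c and Rab3d had amplitudes of 0.011 ± 0.082, 0.093 ± 0.084 and 0.071 ± 0.055, with adjusted p-values of 0.994, 0.668 and 0.581. Rab27b, the close relative of Rab27a, had signals of only 199 to 276 and an amplitude of 0.105 ± 0.033 (adjusted p = 0.096). Its probe set can also match several transcripts. Rab26, known from secretory granules of exocrine cells, had signals of 172 to 338 and an amplitude of 0.058 ± 0.066 (adjusted p = 0.772). The granule Rab of mast cells and others, Rab37, did not pass the filter, with a mean signal of 171.

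Among the markers of chromaffin cells, 2 of 10 were rhythmic without the block and 3 with it, beside 12.8% and 17.9% of all tested genes. Pnmt, which makes adrenaline, peaked at 17.6 h with a log2 amplitude of 0.657 (adjusted p = 0.0129), and Phox2a, a transcription factor of these cells, at 8.49 h with 0.30 (adjusted p = 0.0229). The granule proteins Chga, Chgb and Scg2 had amplitudes of 0.0718, 0.0489 and 0.0701 and were not called. Of the other marker lists, 1 of 9 cortical, 1 of 4 fat and 1 of 4 macrophage genes were rhythmic without the block, and 0 of 2 muscle, 3 liver, 3 red blood cell, 4 endothelial and 2 Schwann cell genes.

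The shares called over all tested genes were 12.8% without and 17.9% with the block. By role, the calls without and with the block were 2 and 3 of 7 Rabs of transport to the surface, 2 and 4 of 14 of early and recycling endosomes, and 1 and 2 of 12 of the endoplasmic reticulum and Golgi. They were 1 and 1 of 7 of late endosomes, lysosomes and autophagy, 0 and 1 of 7 of granules, and 0 and 1 of 3 with no role assigned. The plot of amplitudes shows these groups. The 37 Rab genes called in neither fit had log2 amplitudes between 0.011 and 0.46 without the block. The highest belonged to Rab24, a Rab of autophagy, which had 0.46 ± 0.14 without the block and 0.237 with it (adjusted p = 0.0803 and 0.054).

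The 6 Rab genes with the brightest probe sets act in basic transport steps. Without the block the brightest probe set of 1 of them, Rab14, was called, beside 12.8% of all tested genes. Rab1a, which acts between the endoplasmic reticulum and Golgi, ranged over 5100 to 5620 in the 18 profiles and had an amplitude of 0.017 ± 0.019 (adjusted p = 0.773). The brightest probe set of Rab18, of lipid droplets and endoplasmic reticulum, was nearly as even, at 3000 to 3490 and 0.020 ± 0.026 (adjusted p = 0.828). The other tested Rab18 probe set had a larger amplitude, 0.38, and was not called (adjusted p = 0.209 over all probe sets). Rab2a, of the same early steps, had 0.089 ± 0.027 (adjusted p = 0.0825). A second Rab2a probe set, which may match several genes, was called with an amplitude of 0.089 (adjusted p = 0.0373 over all probe sets). Rab10, which brings cargo to the surface, had 0.072 ± 0.021 (adjusted p = 0.0678). Rab7, the Rab of late endosomes and lysosomes, had 0.092 ± 0.037 (adjusted p = 0.203), and Rab14 was described above. Signals of different probe sets depend on the probes, so levels were not compared between genes.

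**Figure D2:**
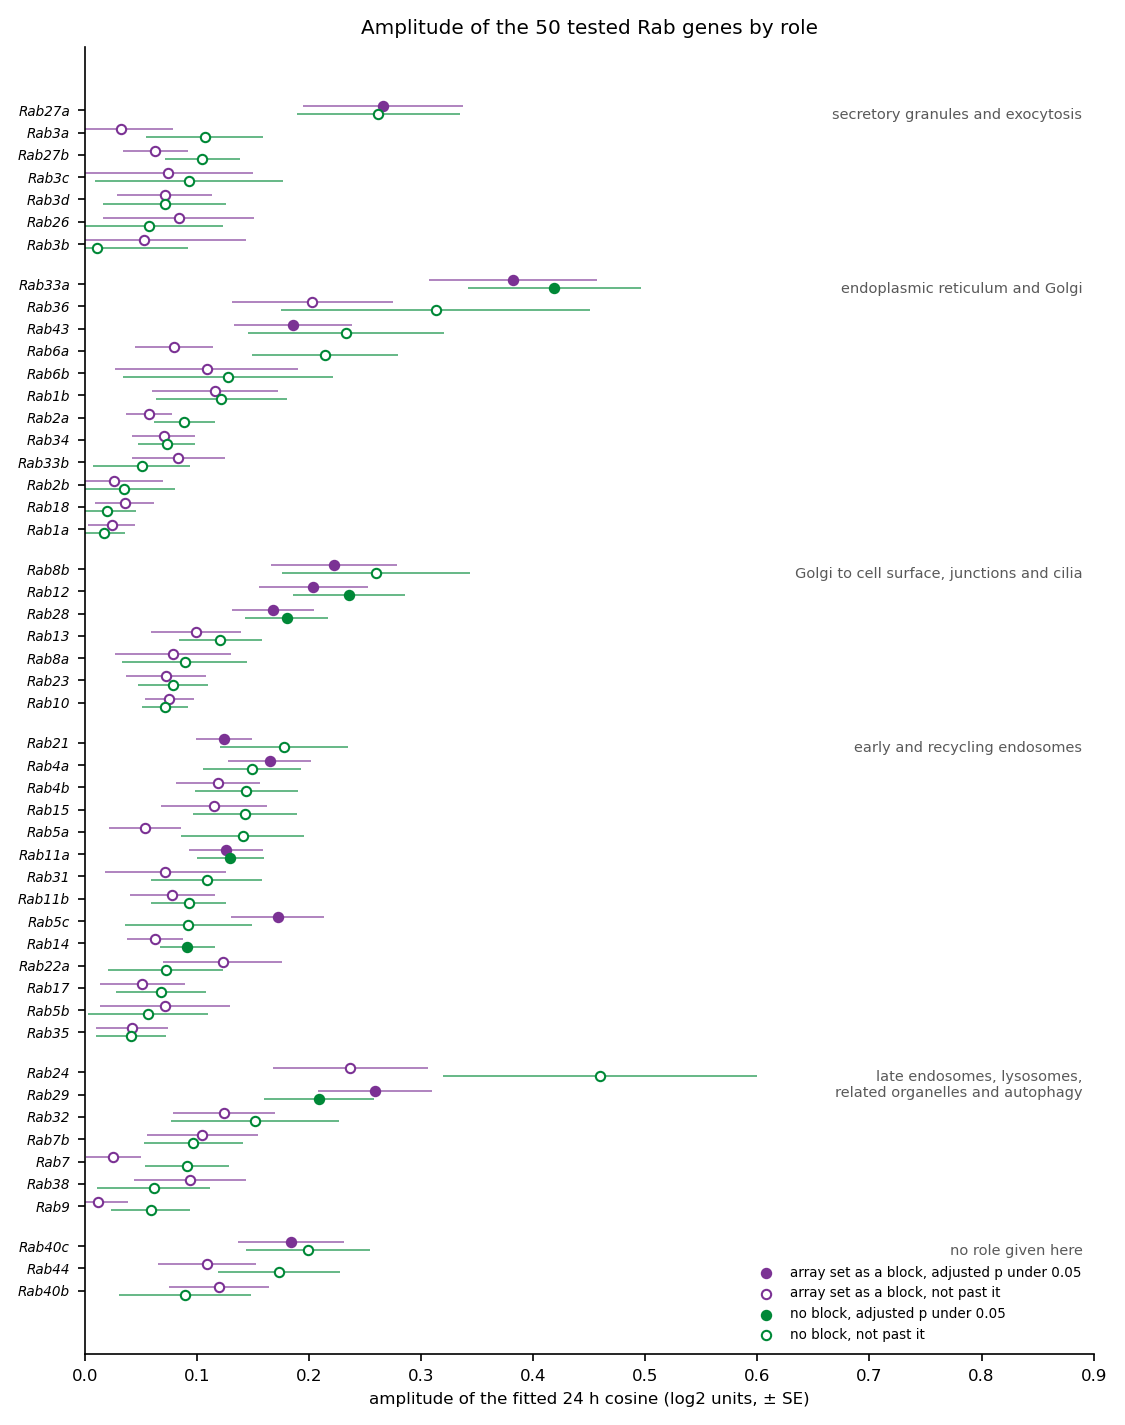
Amplitude of the fitted 24 h cosine (log2 units, bars are SE) for the 50 tested Rab genes, grouped by role and sorted within a group; purple is the fit with the array set as a block, green the fit without it, and filled points have an adjusted p under 0.05. The filled points are 12 with the block and 6 without, and Rab33a has the largest amplitude among them.

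**Figure D3:**
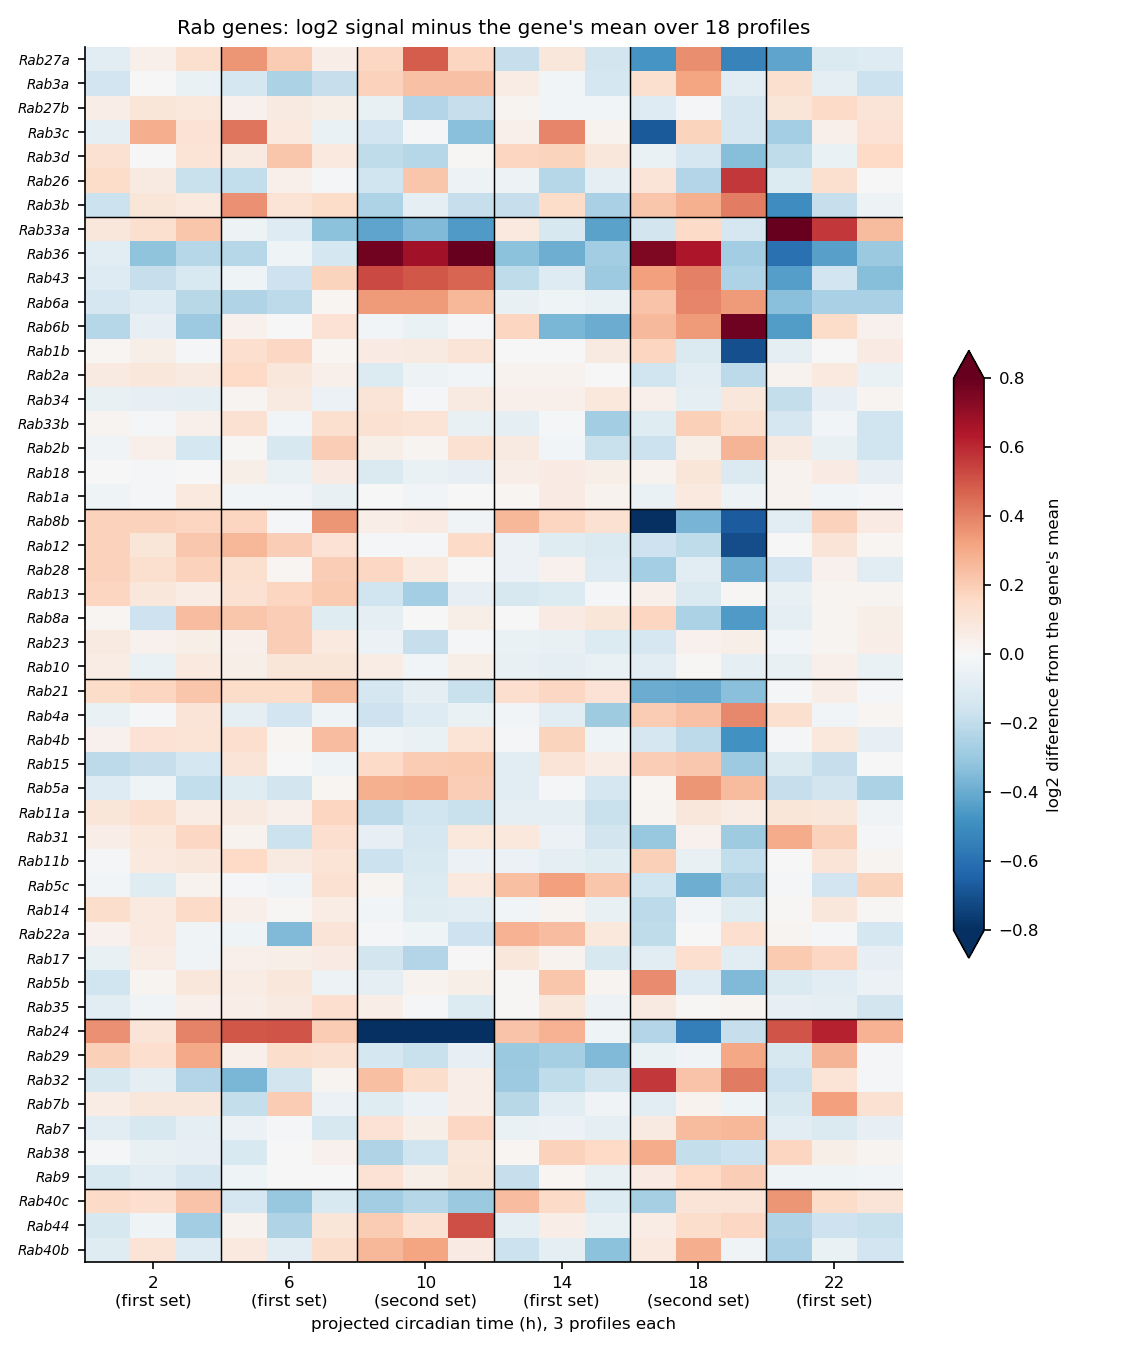
Log2 signal minus the gene's mean over 18 profiles for the 50 tested Rab genes (rows, by role) in 3 profiles at each projected circadian time in hours (columns), with colours limited to 0.8 on either side. Rab24 is low at circadian time 10, Rab36 is high in all profiles at 10 and in 2 of 3 at 18, and Rab8b and Rab21 are low at 18.

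The promoters of the called genes were searched for 4 motifs, of which the first 3 are those bound by clock proteins. The reference holds windows of 300 bases (250 before and 50 after the start site) from RefSeq, build GRCm38.p6, for 48 of the 59 Rab genes, 60 windows in all. The motifs, on either strand, were the E-box CACGTG, the D-box TTATGTAA or TTACGTAA, the ROR and REV-ERB element TAGGTCA and the cAMP element TGACGTCA. The E-box was found in 6 of 48 Rab genes (12.5%), beside 8.09% of all 27025 genes with a window. The D-box was found in 1 Rab gene (2.08%, against 1.23%), the ROR and REV-ERB element in 1 (2.08%, against 2.97%) and the cAMP element in 2 (4.17%, against 2.03%). The 4 called genes that held a motif before the start site are shown, from the gene's own strand, 5′ to 3′, with the motif in capitals.
Rab29, chr1:131867053-131867140, plus strand: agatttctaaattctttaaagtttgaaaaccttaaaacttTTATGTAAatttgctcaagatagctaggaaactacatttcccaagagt
Rab43, chr6:87812359-87812414, minus strand: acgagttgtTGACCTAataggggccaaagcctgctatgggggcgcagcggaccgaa
Rab27a, chr9:73063898-73063947, plus strand: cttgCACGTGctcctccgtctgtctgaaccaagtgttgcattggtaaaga
Rab21, chr10:115315592-115315661, minus strand: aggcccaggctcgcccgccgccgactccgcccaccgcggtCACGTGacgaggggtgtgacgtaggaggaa
The first is the D-box of Rab29, 184 bases before the start. The second is the ROR and REV-ERB element of Rab43, read as its reverse complement, 241 bases before one of the starts of that gene. The third is an E-box of Rab27a, 246 bases before one of its starts, and the fourth an E-box of Rab21, 30 bases before the start. In the other windows of called genes, those of Rab33a, Rab28, Rab12 and Rab11a included, none of these letters was found before the start. Rab23 and Rab5a held E-boxes before the start and Rab24 held an E-box after it, and these genes were not called rhythmic. Rab5a also held a cAMP element. Motif shares were not compared between called and uncalled Rab genes, so the motifs are not linked to the calls. A match is a description of letters and not of a bound site.

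Circadian times 14 and 2 lie 12 h apart within the first array set. Between them 2 Rab genes were lower at 14, beside 2.47% of all tested genes, and 0 were higher, beside 2.28% (7 Rab genes of 50 and 16.9% of all genes at an unadjusted p under 0.05 in either direction). Rab29 had signals of 727, 758 and 777 at circadian time 14, against 1041, 1087 and 1172 at circadian time 2. The groups did not overlap, and the log2 difference was -0.51 (limma, adjusted p = 0.0078). Rab11a had 2705, 2902 and 2920 at 14, against 3217, 3310 and 3362 at 2, a log2 difference of -0.21 (limma, adjusted p = 0.0325). The call of Rab11a was lost when any 1 of these 6 profiles was left out, with an adjusted p of up to 0.15, and that of Rab29 without 62 h replicate 1 (adjusted p = 0.0512). The median difference was -0.0515 over the 50 Rab genes and 0.0164 over all genes. The fit on the first set alone called 5 Rab genes, beside 8.52% of all genes.

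Circadian times 18 and 10 lie 8 h apart and make up the second set. There 5 Rab genes were higher at 18, beside 11.6% of all tested genes, and 6 were lower, beside 9.57%. The largest fall was that of Rab8b, with signals of 661, 748 and 927 at circadian time 18, against 1190, 1259 and 1269 at 10 (log2 difference -0.65 ± 0.11, limma, adjusted p = 0.00044). The largest rise was that of Rab24, with 764, 959 and 996 at 18, against 524, 552 and 560 at 10 (0.68 ± 0.12, limma, adjusted p = 0.00087). In both genes the groups did not overlap.

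Endosomal Rabs moved in both directions, and so did Rabs of other roles. Rab4a had signals of 1588, 1626 and 1805 at 18, against 1218, 1268 and 1323 at 10 (log2 difference 0.38, limma, adjusted p = 0.0024). Rab11a was also higher, with 3108, 3202 and 3282 at 18, against 2654, 2701 and 2746 at 10 (0.24, limma, adjusted p = 0.0043), while its second probe set gave a log2 difference of -0.137 (limma, adjusted p = 0.187 over all probe sets). Rab21 was lower, with 1196, 1202 and 1256 at 18, against 1404, 1452 and 1517 at 10 (-0.25, limma, adjusted p = 0.0041). Rab28 was lower too, with 1455, 1587 and 1824 at 18, against 1931, 2035 and 2181 at 10 (-0.33, limma, adjusted p = 0.0078). The other tested probe sets of Rab21 and Rab28 gave -0.157 and -0.093 and did not pass (limma, adjusted p = 0.205 and 0.342 over all probe sets). Those of Rab4a and Rab24 gave 0.644 and 0.691 and passed (limma, adjusted p = 0.00025 and 0.00135 over all probe sets). The other 5 calls were the granule Rab Rab3b (0.47, limma, adjusted p = 0.0128) and Rab6b among the rises, and Rab12 (-0.40, limma, adjusted p = 0.0150), Rab5c (-0.26, limma, adjusted p = 0.0376) and Rab4b among the falls. Rab6b and Rab4b were named after their values were seen, and their calls held in 8 and 9 of the 18 fits that left out a profile, and not without 78 h replicate 2, where the difference of Rab4b was -0.17. The brightest probe set of Rab6b gave 0.49, while its other tested probe sets gave 0.039 and -0.043 and were not called. The call of Rab3b was lost without 46 h replicate 1 (adjusted p = 0.0554), that of Rab12 without the 70 h pair (adjusted p = 0.0624; without 78 h replicate 2 the difference was -0.22, adjusted p = 0.0404), and that of Rab5c without 46 h replicate 1, the 70 h pair, 54 h replicate 2 or 78 h replicate 2 (adjusted p of up to 0.125). Centring each array on its median also ended the calls of Rab21 (adjusted p = 0.0516), Rab4b and Rab5c.

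Markers of other tissue were uneven between these 2 times. The log2 of the summed signal of 2 tested muscle genes was 8.99 to 12.93 at 18 and 8.56 to 11.07 at 10, that of 3 liver genes 10.95 to 13.65 and 10.69 to 11.00, and that of 10 chromaffin genes 15.61 to 15.93 and 15.63 to 15.74. Without the 4 profiles with an Acta1 signal over 1000, each time keeps 1 profile, and 1 Rab gene was called, beside 5.12% of all genes. Those lone profiles are assumed to vary like the other groups. The differences kept their sign there in all 11 genes, for example -0.43 for Rab8b and 0.42 for Rab24. These genes were called on data that include the lone profiles, so a kept sign was likely from the start and is no support. Fitted on the second set alone, the calls were Rab24, Rab3b and Rab8b, beside 6.01% of all genes.

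**Figure D4:**
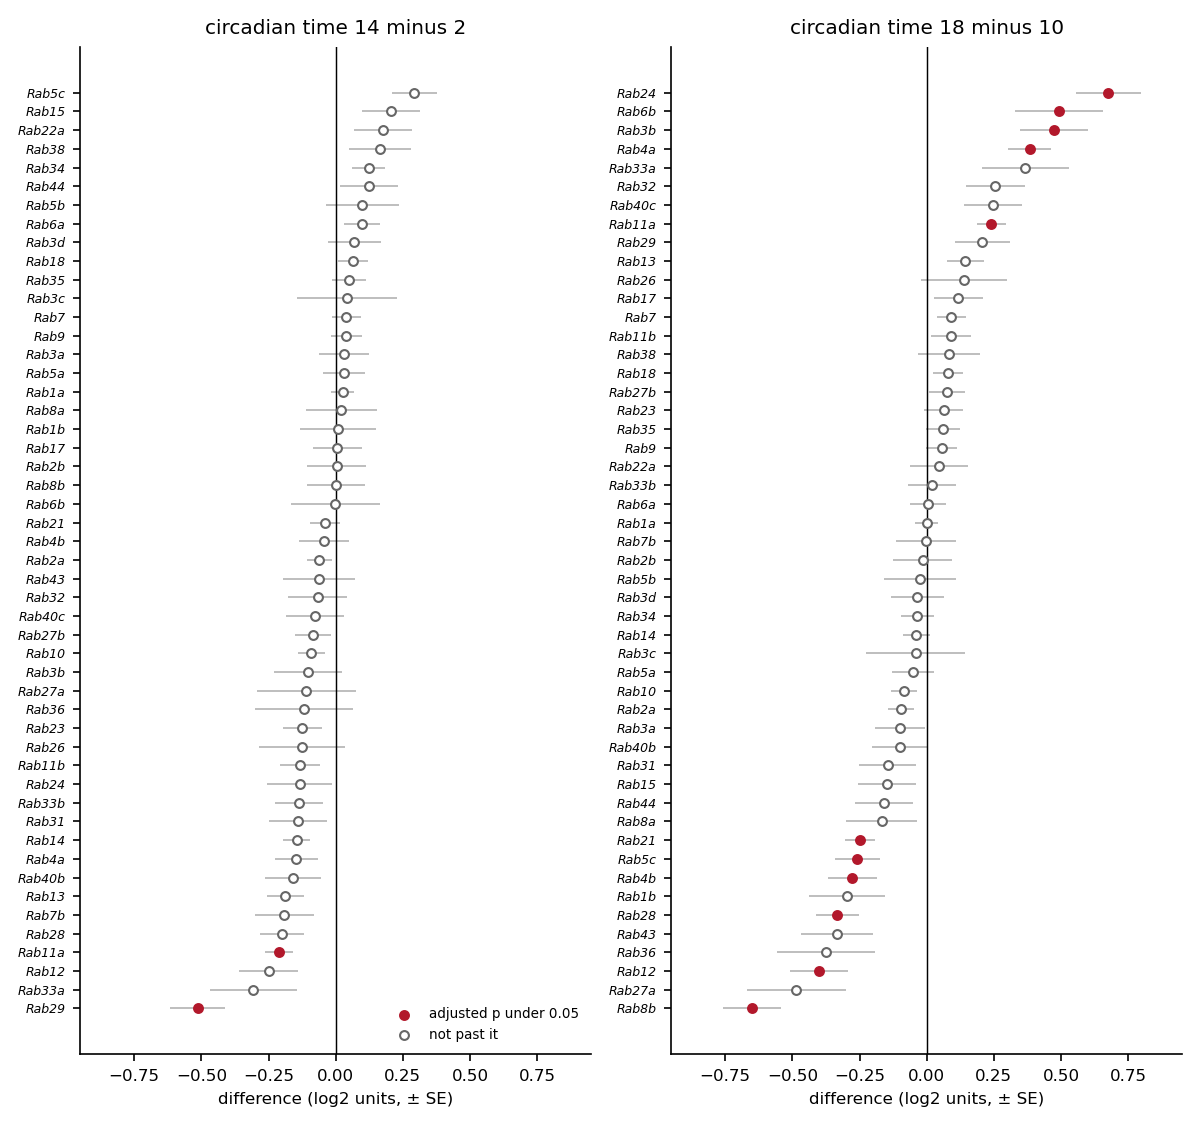
Log2 difference (bars are SE) for the 50 tested Rab genes, circadian time 14 minus 2 on the left and 18 minus 10 on the right, each sorted by size; filled red points have an adjusted p under 0.05. On the left 2 genes are filled, both lower at 14, and on the right 5 are higher and 6 lower at 18.

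Between the array sets 21 of the 50 Rab genes differed. With the 24 h cosine in the fit, 12 Rab genes were higher in the second set, beside 16.9% of all tested genes, and 9 were lower, beside 29.6%. Since the second set holds circadian times 10 and 18 alone, the set and any change at those times that is not a cosine cannot be told apart. Rab36, a Rab that positions lysosomes and late endosomes near the Golgi, had the largest rise, with a median signal of 1217 (590 to 1304) in the second set, against 586 (462 to 706) in the first. The log2 difference was 0.88 ± 0.12 (limma, adjusted p = 1.8e-05), though the 590 of 78 h replicate 2 lay among the values of the first set. Rab43 had a median of 1546 (941 to 1645), against 1006 (817 to 1279), a difference of 0.51 (limma, adjusted p = 0.00017). Rab32, of lysosome-related organelles, had 250 (214 to 327), against 180 (147 to 225), a difference of 0.45 (limma, adjusted p = 0.00014).

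Rab24 had the largest fall, with a median signal of 662 (524 to 996) in the second set, against 1436 (1110 to 1766) in the first, without overlap. The log2 difference was -0.91 ± 0.12 (limma, adjusted p = 7e-06). Rab8b had 1058 (661 to 1269), against 1377 (1140 to 1570), a difference of -0.46 (limma, adjusted p = 0.00088). Rab21 had 1330 (1196 to 1517), against 1768 (1575 to 1917), a difference of -0.38 (limma, adjusted p = 2e-06). The median absolute difference was 0.15 over the 50 Rab genes and 0.178 over all genes. The log2 of the summed signal of endothelial markers was 12.16 to 12.44 in the second set and 12.55 to 12.88 in the first, and that of macrophage markers 12.38 to 12.58 and 11.90 to 12.35. The part of these markers in the differences of the Rab genes was not tested.

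Probe sets of the same Rab gene often disagreed about the array sets. The counts below have no share over all genes beside them and are not read as a trait of the Rab genes. Of 28 Rab genes with more than 1 tested probe set, 17 had probe sets with opposite signs, and the median distance between the extremes of a gene was 0.383 on the log2 scale. In Rab3d, Rab21, Rab3a and Rab7 probe sets were called in opposite directions. Of 12 of these genes whose brightest probe set was called, 3 (Rab24, Rab43 and Rab6b) had all probe sets called in the same direction. The log2 differences of the Rab14 probe sets ran from -1.67 to -0.01, and those of Rab36 were 0.88 and -0.11. For Rab21, the second probe set gave 0.26, opposite to the -0.38 of the first, and it was not rhythmic under the block (adjusted p = 0.629).

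**Figure D5:**
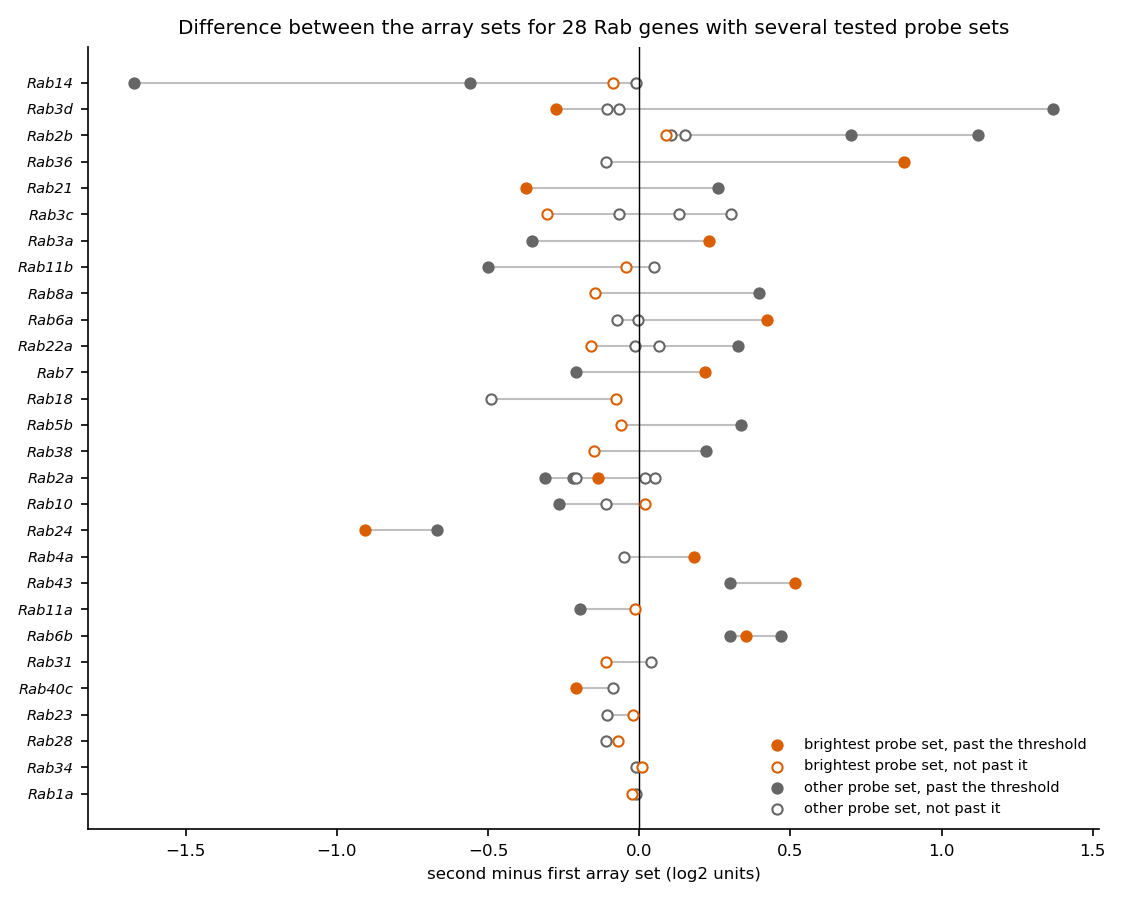
Log2 difference between the second and the first array set for every tested probe set of the 28 Rab genes that have more than 1; orange is the brightest probe set of the gene, grey the others, filled points have an adjusted p under 0.05, and genes are sorted by the distance between their extremes. In 17 genes the points lie on both sides of 0, and in Rab24, Rab43 and Rab6b all points are filled and lie on the same side.

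Second probe sets were also tested for a 24 h rhythm. Of 47 other tested Rab probe sets, 5 were called without the block and 7 with it, beside 8.93% and 15.2% of the other probe sets of all genes. At least 1 called probe set was found for 8 of 50 Rab genes without the block and 15 with it, beside 14.8% and 22.2% of all genes. Rab4a, for example, had a second probe set with a log2 amplitude of 0.234 (adjusted p = 0.0245 over all probe sets), and that of Rab36 had 0.161 (adjusted p = 0.0289). A second probe set of Rab3a had an amplitude of 0.168 under the block (adjusted p = 0.0363), where the brightest had 0.032.

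Between the second and first cycle in darkness, 0 of 50 Rab genes and 0% of all genes differed (limma, adjusted p). At an unadjusted p under 0.05 there were 1 Rab gene and 1351 genes. The 1 was Rab33a, lower by 0.26 on the log2 scale in the second cycle (limma, unadjusted p = 0.0265, adjusted p = 0.491). Log2 differences over the 50 genes ran from -0.257 to 0.149. This comparison used the 13 profiles of a single cycle, 6 of the second and 7 of the first, and a term for a changed rhythm between cycles also called 0 genes (1 Rab gene and 325 genes at an unadjusted p under 0.05).

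The proteins that turn Rabs on and off and read their state were counted beside the same background of 12.8%. Of escort and prenylation genes 2 of 7 were called, of exchange factors 4 of 29, of GTPase activating proteins 3 of 36, and of effectors 6 of 33. With the block the counts were 2, 7, 7 and 10, beside 17.9%. Rabggtb, the catalytic subunit of the enzyme that adds the lipid tail, peaked at 20.9 h with a log2 amplitude of 0.18 ± 0.041 (adjusted p = 0.0225). Chml, an escort protein, peaked at 14.4 h with 0.22 ± 0.056 (adjusted p = 0.0343).

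Among the exchange factors, Rab3ip, which activates Rab8 proteins, peaked at 11.9 h with a log2 amplitude of 0.21 ± 0.034 (adjusted p = 0.0022). Hps1, part of the complex that activates Rab32 and Rab38, peaked at 3.86 h with 0.16 ± 0.032 (adjusted p = 0.0099). Dennd1a, which activates Rab35, and Rin2, which activates Rab5 proteins, peaked at 7.68 and 11.4 h with amplitudes of 0.196 and 0.171. The GTPase activating proteins called were Tbc1d16 (0.31 ± 0.050, peak at 10.9 h, adjusted p = 0.0020), Tbc1d4, which insulin signalling restrains (0.21 ± 0.039, peak at 1.09 h, adjusted p = 0.0061), and Tbc1d15 (0.20 ± 0.050, peak at 7.72 h, adjusted p = 0.0310).

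Among the called partner genes, the 2 largest amplitudes were those of effectors. Myo5b, the myosin motor of Rab11 endosomes, peaked at 13.8 h with a log2 amplitude of 0.41 ± 0.077 (adjusted p = 0.0068) and was higher at circadian time 14 than at 2 by 0.72 (limma, adjusted p = 0.0318), the times at which Rab11a was lower by 0.21. Rims2, which binds Rab3 proteins at release sites, peaked at 14.8 h with 0.37 ± 0.092 (adjusted p = 0.0305) and was higher at 14 by 0.76 (limma, adjusted p = 0.0117). Uso1, the Golgi tether recruited by Rab1, peaked at 14.3 h with 0.195 (adjusted p = 0.0109), and Rabep2, an effector of endosomal Rabs, at 9.25 h with 0.139 (adjusted p = 0.0336). Lrrk2, the kinase recruited by Rab29 and named here after its values were seen, had an amplitude of 0.199 with a peak at 1.35 h (adjusted p = 0.0502) and was lower at 14 than at 2 by 0.53 on the log2 scale (limma, adjusted p = 0.0191). All these values come from the same 18 profiles as those of the Rab genes and stand side by side only.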

How the data were processed

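The authors deposited a linear intensity for each probe set, and the sources used here do not give its summarisation or scaling. Values were turned into log2(intensity + 51), with the 10th percentile of the table, 51, as the offset. Only probe sets averaging over a signal of 183 (40th percentile) were kept. Genes were named through the platform annotation. Fits used limma 3.58.1 (moderated tests with trend) in R 4.3.3 with the data.table package (version 1.17.8), and p-values were adjusted over 13880 genes. The array set was told by a ThrX-3 signal over 300. Scripts were tested on simulated data. Precision is set by how many arrays there are, since arrays have no read depth.

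The Rab genes, role groups, partner lists and markers were chosen with earlier results of these data known. Named are the Rab genes called in the 24 h test with or without the block, up to 6 called in each contrast and between cycles by lowest p, the granule Rabs, the 6 brightest, the 3 largest rises and falls between sets, and up to 4 called members of each partner list. Alternatives varied the offset, filter, normalization, near-copies, array set, probe set and profiles.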

Additional observations from a re-analysis of the deposited data

How the results depend on the processing

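The count of rhythmic Rab genes, 6, became 21 with all 24 arrays as separate samples (beside 30.2% of all genes), 29 for any difference between circadian times (53.9%), 12 with the array set as a block (17.9%) and 3 without the profiles with Acta1 over 1000 (7.33%); leaving out 1 profile gave 4 to 12 (11 without the pair of 50 h and 74 h, 12 without 50 h replicate 2). With the block, 12 became 6 without the Acta1 profiles (13.9% of all genes) and 7 to 13 without 1 profile (7 without 46 h replicate 1). For circadian times 14 and 2, the 2 calls became 4 without a filter (3.24% of all genes), 5 with 24 arrays (13%), 5 in the first set alone (8.52%), and 0 to 4 without 1 profile (0 without 62 h replicate 1, 1 without any other profile of those times, 4 without 78 h replicate 2). For 18 and 10, the 11 calls became 1 without the Acta1 profiles (5.12% of all genes), 3 in the second set alone (6.01%) and 7 to 16 without 1 profile (7 without 46 h replicate 1 or without the 70 h pair). The array sets gave 18 to 23 calls without 1 profile, and the cycles gave 0 under every alternative run. The cause of these changes was not tested, and some of these fits hold fewer profiles. In the alternatives fitted to the brightest probe set, no named gene's difference changed sign; other probe sets of a gene could, as that of Rab11a between 18 and 10 (-0.137). Rab33a and Rab12 stayed past the threshold in all 29 alternatives of the 24 h test. No paired analysis was possible because the labels give no replicate numbers that pair arrays. Dim probe sets limit what can be said of the 9 Rab genes under the filter.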

Other observations

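The 9 Rab genes under the filter had mean signals between 67.7 and 171. When no filter was applied, 2 of them were called in the 24 h test, beside 8.93% of all genes. The same 2 were called in the comparison of circadian times 14 and 2, beside 3.24%. Rab20, a Rab of phagosomes and endosomes, had signals of 63.5 to 216, a log2 amplitude of 0.381 with a peak at 23.7 h (limma, adjusted p = 0.0075) and was lower at 14 than at 2 by 0.36 (limma, adjusted p = 0.0457). Rab42 had signals of 102 to 206, an amplitude of 0.303 with a peak at 0.061 h (limma, adjusted p = 0.0022) and was lower at 14 by 0.58 (limma, adjusted p = 0.0092). Both were also called with the array set as a block, beside 13% of all genes. At such low signals the offset of 51 makes differences smaller than they are on the linear scale. The other 7, Rab19, Rab25, Rab30, Rab37, Rab39, Rab39b and Rab9b, were not called.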
